A study of Mus musculus with 2 samples.

Results

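The 33 genes described here encode proteins that carry a cell through mitosis, and 33 of 33 were found by symbol among the 16416 genes measured in single cells from mouse tumors. Tumors grown in mice with the S303/7A form of heat shock factor 1 (HSF1), a serine-to-alanine mutant, were set beside tumors grown in wild-type (WT) mice. Each genotype gave 1 library, and a pool of 4 mice is named in the design text, so animals cannot be told apart within a library. Live CD45+ and CD45- cells of each genotype were sorted and mixed 5 to 1, and 3′ ends of RNA were counted by unique molecular identifiers (UMIs), which each mark 1 captured molecule. The mutation belongs to the host mice; the tumor line, the age of the mice and whether the tumor cells carry the mutation are not stated by the sources used. HSF1 induces heat shock protein genes when proteins misfold.

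A cell enters mitosis when cyclin B switches on the kinase CDK1, which leads to condensed chromosomes and a bipolar spindle. The spindle checkpoint then holds back the anaphase promoting complex (APC/C) until every kinetochore is attached, after which APC/C with its activator CDC20 marks cyclin B and securin for destruction, and the midzone proteins guide the cleavage of the cell. Most of these genes share 1 program of transcription: in resting cells the DREAM complex keeps them off, and in the late cell cycle MYBL2 with the MuvB core and FOXM1 switch them on, largely through the cell cycle genes homology region (CHR) and through CCAAT boxes bound by NF-Y. In tumors they are used to recognise dividing cells of any type.

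The shared promoter elements are shown first, since they are a feature of the genes that the choice of genes did not use. The elements sought were picked from what is known of mitotic promoters, so their shares are a description and not a test. Promoters from 250 bases before to 50 bases after the RefSeq start were at hand for 28 of the 33 genes, in 30 windows, since Ect2 and Prc1 have 2 starts each; Ccna2, Aurkb, Tpx2, Kif20a and Smc4 have no entry in the table. The genes printed are the 4 with the greatest mean ratio of cycling to other clusters among those with an entry (Birc5, Cenpf, Ube2c and Cdc20) and the gene with the smallest (Ect2). Each runs 5′ to 3′ along its gene's strand on GRCm38.p6, and capitals mark the CHR element, TTTGAA or its reverse complement TTCAAA, and the CCAAT box, CCAAT or ATTGG, searched on both strands.
Birc5: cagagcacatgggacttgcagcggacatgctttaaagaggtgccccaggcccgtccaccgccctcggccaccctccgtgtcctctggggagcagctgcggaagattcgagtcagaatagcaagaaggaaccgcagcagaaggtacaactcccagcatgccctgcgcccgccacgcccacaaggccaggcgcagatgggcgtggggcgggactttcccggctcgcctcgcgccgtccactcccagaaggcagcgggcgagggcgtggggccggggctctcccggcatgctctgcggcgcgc
Cenpf: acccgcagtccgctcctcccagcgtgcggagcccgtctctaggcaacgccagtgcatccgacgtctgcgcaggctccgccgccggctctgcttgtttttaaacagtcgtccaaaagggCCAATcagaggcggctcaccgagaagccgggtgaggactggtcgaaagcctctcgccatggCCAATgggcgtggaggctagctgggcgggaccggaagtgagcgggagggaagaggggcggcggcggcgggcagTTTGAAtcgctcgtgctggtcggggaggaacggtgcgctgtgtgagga
Ube2c: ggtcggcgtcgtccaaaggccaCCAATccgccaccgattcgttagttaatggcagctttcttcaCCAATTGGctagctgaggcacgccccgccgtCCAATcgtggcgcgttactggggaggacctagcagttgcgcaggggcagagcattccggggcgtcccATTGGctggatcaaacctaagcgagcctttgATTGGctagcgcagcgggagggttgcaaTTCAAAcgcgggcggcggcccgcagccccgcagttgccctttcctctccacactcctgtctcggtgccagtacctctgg
Cdc20: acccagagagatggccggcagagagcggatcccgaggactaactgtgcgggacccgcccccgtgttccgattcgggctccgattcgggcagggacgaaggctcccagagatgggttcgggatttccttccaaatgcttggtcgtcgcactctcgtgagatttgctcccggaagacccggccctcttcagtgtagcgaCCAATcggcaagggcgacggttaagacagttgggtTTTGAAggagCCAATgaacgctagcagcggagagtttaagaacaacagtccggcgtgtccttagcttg
Ect2: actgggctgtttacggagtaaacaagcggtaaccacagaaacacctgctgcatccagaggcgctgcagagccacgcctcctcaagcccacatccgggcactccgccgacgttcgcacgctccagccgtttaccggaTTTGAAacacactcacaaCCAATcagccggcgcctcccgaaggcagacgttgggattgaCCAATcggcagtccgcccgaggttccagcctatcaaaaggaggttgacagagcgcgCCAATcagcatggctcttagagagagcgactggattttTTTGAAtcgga
The windows are chr11:117848987-117849286 on the plus strand for Birc5, chr1:189688037-189688336 on the minus strand for Cenpf, chr2:164769679-164769978 on the plus strand for Ube2c, chr4:118437294-118437593 on the minus strand for Cdc20 and chr3:27153829-27154128 on the minus strand for Ect2. Cenpf and Cdc20 each hold 2 CCAAT boxes and a CHR element, Ube2c holds 6 CCAAT boxes of which a pair overlaps in CCAATTGG, and the Ect2 window holds 3 CCAAT boxes and 2 CHR elements. Neither string is in the Birc5 window.

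A CHR element was found in 23 of the 30 windows of the mitosis genes, or 76.7%, against 17.9% of 32851 promoter windows of all genes. A CCAAT box was found in 83.3% of the mitosis windows, against 37.4% of all windows, and at least 2 boxes in 53.3%, against 11.7%. Windows with both elements made up 73.3% of the mitosis set and 6.95% of all windows. DNA replication genes, which are induced earlier in the cell cycle, held a CHR element in 5 of 47 windows, or 10.6%, and a CCAAT box in 57.4%. Counted by gene, 21 of the 28 mitosis genes had a CHR element in at least 1 window, and Birc5, Bub1, Ccnb1, Cenpe, Nuf2, Nusap1 and Tacc3 had none. The element lay near the start: in 21 of 30 mitosis windows, or 70.0%, it began at or after 60 bases before the start, against 5.50% of all windows, a limit that was set after the positions had been seen. These matches are letters in a window and not measured binding.

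**Figure D1:**
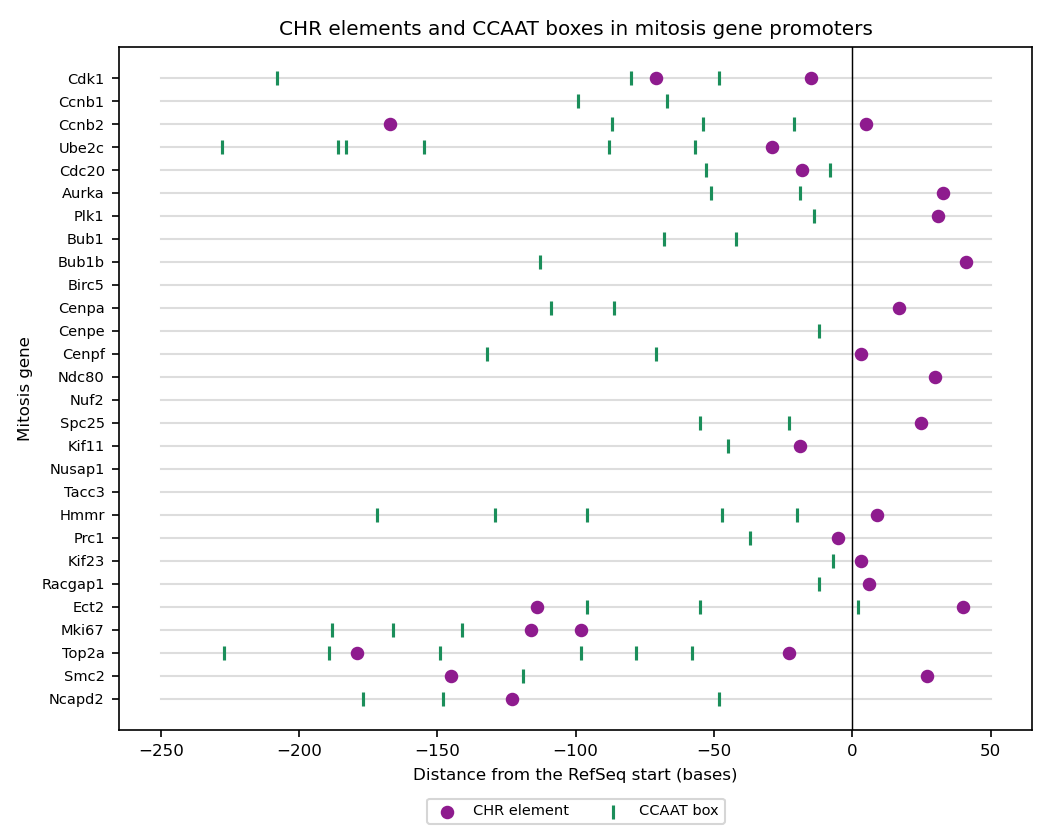
Positions of CHR elements (filled circles) and CCAAT boxes (vertical ticks) in the promoter windows of the 28 mitosis genes with a RefSeq entry, as distance in bases from the RefSeq start to the first base of the match, with 1 window per gene. In Ube2c, Cenpf and Cenpa every CCAAT box lies upstream of the CHR element.

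The S303/7A library held 4802 cells with a median of 13028 UMIs, and the WT library 6654 cells with a median of 7698 UMIs. The 22 clusters and 11 classes are those the authors deposited, and comparisons used the 17 clusters and 8 classes with 50 or more cells per library. The clusters rest on the expression of all genes, these included, so a cluster high in mitosis genes is a description and not a test. C04 of the Tumor class, C11 of the CD8 T cell class (CD8T) and C13 of the macrophage class (MF) are called cycling here for their mitosis UMIs. Their first 10 genes by fold against other clusters began with Tnfrsf12a and Fosl1 in C04. In C11 they began with Hist1h2ap, Pclaf, Hmgb2, Stmn1 and Rrm2, and Ube2c, Ccna2 and Nusap1 of the 33 came after these. In C13 they began with Fcrls, Hist1h2ap, Tk1 and Pf4, and Birc5 and Mki67 of the 33 came after these. In C04, 0 of the 33 genes were among the first 10, while Pimreg, from a wider list of 73 mitosis genes, was. C08 of the Tumor class had the monocyte-listed gene Fn1, also a matrix gene, among its first 10, and C02 and C09 of MF had no macrophage marker there. With 1 library per genotype there is no test of any difference: intervals are 95% and cover counting error only.

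Cells of some clusters carried RNA of other cell types. In the MF cluster C05 the 5 CD8 T cell markers (Cd3e, Cd3d, Cd8a, Cd8b1, Trac) summed to 11.1 UMIs per 10000 in S303/7A and 12.1 in WT, against 0.35 and 0.57 in C13. At least 3 of these marker UMIs were found in 94.9% of S303/7A and 80.7% of WT cells of C05. Of all C05 cells, 26.0% in S303/7A and 51.7% in WT were among the cells with the highest doublet scores. The automatic threshold of that score did not work for S303/7A. MF values are therefore given with and without C05. Hemoglobin markers summed to 14.5 UMIs per 10000 in C11 of S303/7A and 0.01 in WT, and macrophage markers to 10.2 and 4.44. The hemoglobin sum was 38.9 in S303/7A and 0.05 in WT in C09, and 3.99 and 0.04 in the MF class. Monocyte markers summed to 13.6 in S303/7A and 51.5 in WT in MF, and to 8.98 and 29.9 in the dendritic cell class. In the Tumor class macrophage markers summed to 3.60 in S303/7A and 1.56 in WT. The part of this RNA in the differences of these classes was not tested. There were 48 barcodes that occur in both libraries. Leaving out those 96 cells reversed no class ratio and no cycling cluster share ratio that was 1.5-fold or more.

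Mitosis genes stood high in C04, C11 and C13, and the summed level of the whole class differed between the libraries in opposite directions in tumor and CD8 T cells against macrophages. The level used here is the mean over cells of UMIs per 10000 (CP10K), and log2 ratios are S303/7A over WT with 0.1 CP10K added to each. In the Tumor class the 33 genes summed to 5.75 CP10K in S303/7A and 11.8 CP10K in WT, a log2 ratio of -1.04. CD8T held 16.6 CP10K in S303/7A and 27.6 CP10K in WT, a log2 ratio of -0.74. MF held 9.97 and 8.14 CP10K, a log2 ratio of 0.29, and without C05 it held 9.31 in S303/7A and 6.80 in WT, or 0.45. As summed UMIs over all UMIs of the class, the ratios were 0.476 (0.468 to 0.483) in Tumor, 0.629 (0.615 to 0.643) in CD8T and 1.13 (1.11 to 1.16) in MF.

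Of the other classes, dendritic cells (DC) held more in S303/7A and natural killer (NK) cells less. DC held 9.64 CP10K in S303/7A and 6.25 CP10K in WT, a log2 ratio of 0.62 and a UMI ratio of 1.61 (1.52 to 1.70). Regulatory T cells (Treg) held 12.9 CP10K in S303/7A and 13.1 in WT, while their UMI ratio went the other way, at 1.10 (1.03 to 1.18). NK cells held 2.89 CP10K in S303/7A and 3.97 in WT, a log2 ratio of -0.46 and a UMI ratio of 0.763 (0.665 to 0.874). Monocytes (Mo) were low in each library, at 1.80 CP10K in S303/7A and 1.74 in WT. The Stromal class held 14.9 and 13.3 CP10K, but its UMI ratio of 1.06 had an interval of 0.970 to 1.15. Plasmacytoid dendritic cells (C19) held 6.40 CP10K over 32 S303/7A cells and 1.73 over 33 WT cells, too few for the comparisons that follow.

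**Figure D2:**
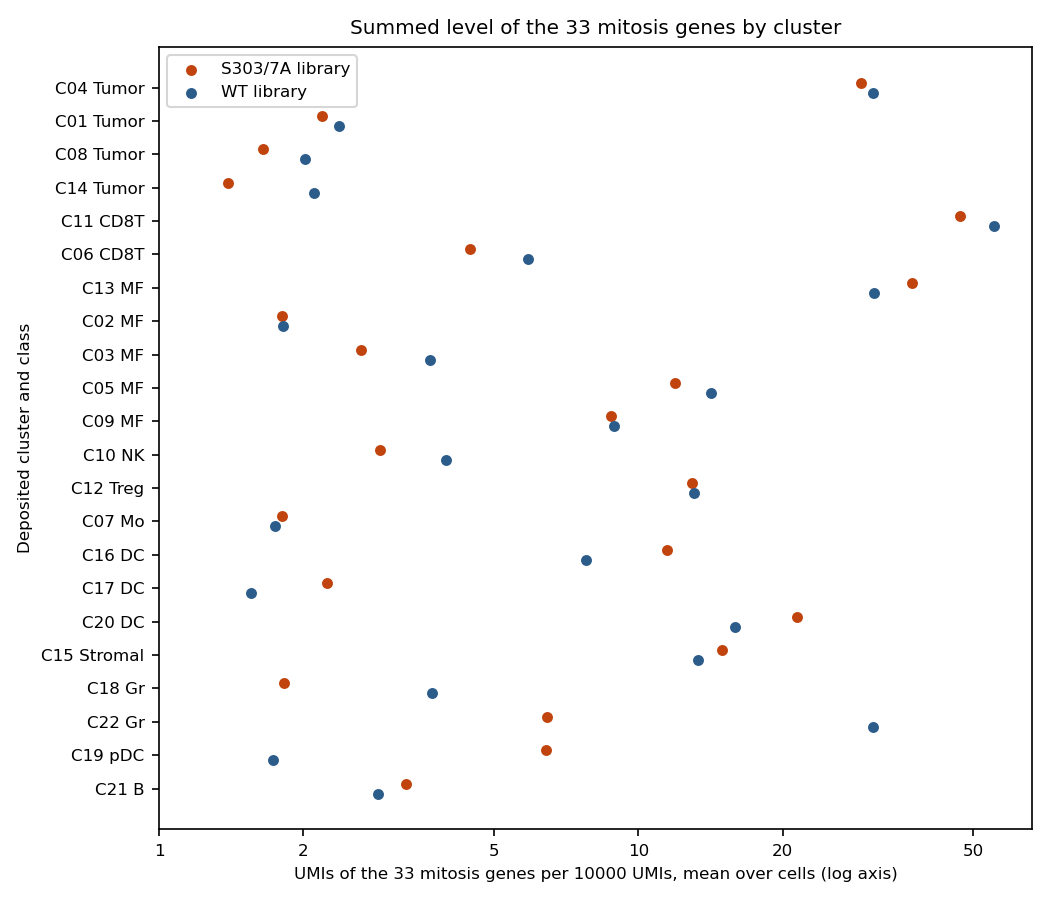
Summed level of the 33 mitosis genes in each deposited cluster, as UMIs per 10000 UMIs averaged over cells on a log axis, for the S303/7A library (orange) and the WT library (blue). C11, C13 and C04 stand highest among clusters with at least 50 cells in each library, and the C22 point of WT rests on 9 cells.

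Within the cycling clusters the libraries stood much closer than within the Tumor and CD8T classes. C04 held 29.2 CP10K in S303/7A and 30.9 CP10K in WT, a log2 ratio of -0.08. C11 held 46.9 and 55.1 CP10K, a log2 ratio of -0.23. In C13 the order was the other way, with 37.3 CP10K in S303/7A and 31.1 CP10K in WT, a log2 ratio of 0.26. Against the other clusters of the same class, the summed level was 15.6-fold higher in S303/7A and 13.8-fold higher in WT for C04, 10.6-fold and 9.35-fold for C11, and 6.42-fold and 5.06-fold for C13.

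In the other Tumor, CD8T and MF clusters the level was below that of the cycling cluster of the class, but above 0. The other Tumor clusters together held 1.87 CP10K in S303/7A and 2.24 CP10K in WT, with 2.19 and 2.37 in C01, 1.64 and 2.01 in C08, and 1.39 and 2.11 in C14. The other CD8T cluster, C06, held 4.45 CP10K in S303/7A and 5.90 CP10K in WT. The other MF clusters held 5.81 and 6.14 CP10K, and 3.30 in S303/7A and 4.16 in WT without C05. C05 itself held 11.9 and 14.2 CP10K, and there the level went with the T cell markers: cells with at least 3 such UMIs held 12.3 CP10K in S303/7A and 15.9 in WT, while cells with 0 held 4.07 over 18 S303/7A cells and 6.93 over 40 WT cells. The part of T cell RNA in the C05 level was not tested. C09, at 8.76 CP10K in S303/7A and 8.90 in WT, was the shallowest MF cluster, with medians of 2545 and 1386 UMIs.

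Since the sort set the mix of CD45+ and CD45- cells, shares are taken within a class. The share of cells in the cycling cluster differed more than the level inside it. C04 held 14.2% of S303/7A tumor cells (133 of 935, exact binomial interval 12 to 16.6%) and 33.4% of WT tumor cells (780 of 2332, 31.5 to 35.4%), a ratio of 0.43 (0.36 to 0.50). C11 held 28.5% of S303/7A CD8 T cells (176 of 617, 25.0 to 32.3%) and 44.2% in WT (306 of 693, 40.4 to 47.9%), a ratio of 0.65 (0.56 to 0.75). C13 held 13.2% of S303/7A macrophages (275 of 2082, 11.8 to 14.7%) and 8.02% in WT (159 of 1983, 6.86 to 9.30%), a ratio of 1.65 (1.37 to 1.98). Without C05 the C13 shares were 17.7% in S303/7A and 9.81% in WT. When the S303/7A level of each cluster was weighted by the WT shares, the log2 ratio was -0.10 in place of -1.04 in Tumor, -0.25 in place of -0.74 in CD8T and -0.02 in place of 0.29 in MF. In DC the same weighting left 0.52 of 0.62. When WT levels were weighted by the S303/7A shares, the log2 ratio of that level over the WT level was -0.91 in Tumor, -0.47 in CD8T, 0.30 in MF and 0.11 in DC.

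Cells were also counted without the cluster labels, by the UMIs of the same 33 genes. Each cell was thinned to 1000 UMIs, which left out 63 S303/7A and 199 WT cells with fewer, and cells with at least 3 mitosis UMIs were counted, a limit on a range and not a cell type. They made up 6.52% of S303/7A tumor cells (61 of 935) and 17.0% in WT (396 of 2332), a ratio of 0.38 (0.30 to 0.50). In CD8T the shares were 19.1% in S303/7A and 32.9% in WT, a ratio of 0.58 (0.48 to 0.71), and in MF 12.8% and 10.6%, a ratio of 1.20 (1.01 to 1.43). The shares went the same way as those of the clusters, which is no separate check, since the clusters rest in part on these genes. Without thinning, 74.4% of S303/7A and 80.1% of WT tumor cells, 64.7% and 69.0% of CD8 T cells, and 56.8% and 31% of macrophages had at least 3 such UMIs, with median depths of 28128 and 25531 UMIs in Tumor, 8325 and 6294 in CD8T, and 14044 and 5388 in MF.

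Cells with at least 3 mitosis UMIs were also counted in monocytes, neutrophils, NK cells and Treg. Clusters rest in part on these genes, so a low count there is a description and sets no background for other classes. Of monocytes, 0 of 267 S303/7A cells and 0 of 518 WT cells had 3 such UMIs in 1000. The exact 95% intervals allow shares of up to 1.37% and 0.71%. Neutrophils of C18, which do not divide, gave 0 of 30 in S303/7A and 0 of 22 in WT, which allows up to 11.6% and 15.4%. Their median depths before thinning were 1280 and 1125 UMIs. NK cells gave 0 of 193 in S303/7A and 1.14% in WT. Treg stood above the monocyte limits in each library, at 13.4% in S303/7A and 12.2% in WT.

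Within the cycling clusters, 43.6% of S303/7A and 48.8% of WT cells of C04 reached 3 UMIs, a ratio of 0.89 (0.73 to 1.10). In C11 it was 62.5% and 68.0%, a ratio of 0.92 (0.80 to 1.06), and at least 5 UMIs were found in 39.2% of S303/7A and 50.7% of WT cells. In C13 it was 57.8% in S303/7A and 45.9% in WT, a ratio of 1.26 (1.03 to 1.53). At least 5 UMIs were found in 33.1% of S303/7A and 22% of WT cells of C13, and at least 1 in 81.5% and 81.1%. Thinned to 3000 UMIs, which makes a limit of 3 looser, 81.0% of S303/7A and 79.9% of WT cells of C13 had at least 3. Median depths before thinning in C13 were 18801 UMIs in S303/7A and 9330 UMIs in WT, and macrophage markers there summed to 279 and 185 CP10K; their part in the C13 differences was not tested. Cells at 3 and at 2 UMIs numbered 13 and 20 in C04 of S303/7A and 103 and 99 in WT, 24 and 21 in C11 of S303/7A and 21 and 36 in WT, and 33 and 23 in C13 of S303/7A and 24 and 23 in WT.

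**Figure D3:**
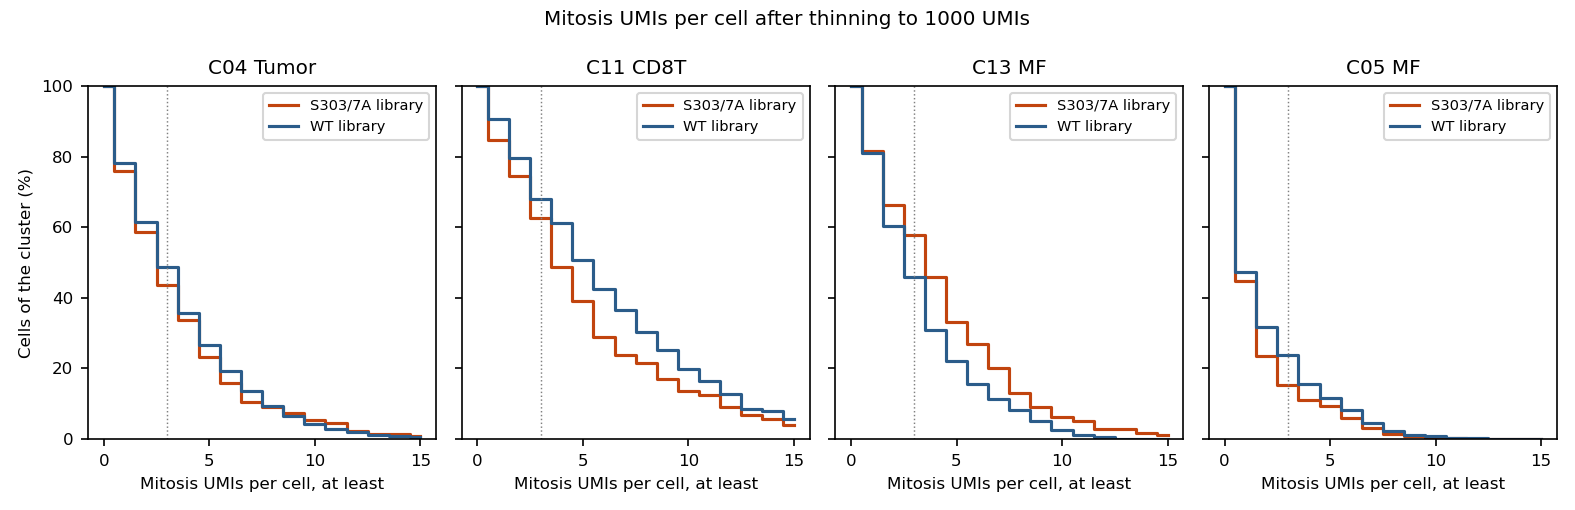
Share of the cells of C04, C11, C13 and C05 (y axis, percent) with at least a given number of mitosis UMIs (x axis) after each cell was thinned to 1000 UMIs, for S303/7A (orange) and WT (blue), with the limit of 3 dotted. Over the 15 UMIs plotted, the WT line lies above the S303/7A line in C11, and in C05 up to 12 UMIs, and below it in C13 from 2 UMIs on, while the lines of C04 cross.

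The balance of mitotic and replication RNA was close between the libraries in C04 and less so in C13. The ratio of thinned mitosis UMIs to UMIs of 52 DNA replication genes was 1.52 in S303/7A and 1.46 in WT in C04, 1.08 and 1.18 in C11, and 1.37 and 1.09 in C13. In the non-cycling clusters C01 and C06 it was lower, at 0.40 in S303/7A and 0.42 in WT in C01 and 0.44 and 0.54 in C06. Other clusters not called cycling stood nearer to C11. The ratio was 0.85 in S303/7A and 0.96 in WT in C05, and 1.20 and 0.90 in C12. In C20 it was 1.23 over 35 S303/7A cells and 1.20 over 27 WT cells.

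Member by member, genes are called past the fold when the mean level over the libraries is at least 0.1 CP10K and the log2 ratio is at or past 1.5-fold. In Tumor, 18 of the 23 mitosis genes tested were lower in S303/7A by 1.5-fold or more and 0 were higher, where 1.64% of the 7194 genes tested were lower and 0.653% higher by as much. In CD8T it was 16 of 31 lower, against 2.01% of all genes, and 0 higher, against 1.60%. In MF 0 of 27 passed the fold in either direction, while 26 of 27 were higher by any amount; 1.59% of all genes there were 1.5-fold higher, 2.73% were 1.5-fold lower and 45.8% were lower by any amount. In DC 8 of 22 were 1.5-fold higher, against 2.29% of all genes, and 0 lower, against 3.94%. In NK 2 of 7, Ube2c and Cenpa, were 1.5-fold lower, against 5.34%, and 0 higher, against 3.21%. In Treg 1 of 26, Cenpf, was higher, against 6.40%, and 0 were lower, against 11.2%. In Stromal 10 of 28 were higher and 5 lower, where 10.1% and 20.6% of all genes were. In Mo 0 of 5 passed, where 4.36% of all genes were lower and 5.80% higher.

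Over all 33 genes, filtered or not, 33 were lower in S303/7A by any amount in Tumor and 33 in CD8T, where 57.5% and 54.8% of all genes tested were lower. The ratio of their summed UMIs ran from 0.354 for Bub1 to 0.701 for Smc4 in Tumor and from 0.455 for Hmmr to 0.830 for Racgap1 in CD8T. In MF the UMI ratio ran from 0.852 for Ect2 to 1.47 for Cdk1, and 32 of 33 log2 ratios were above 0. The median log2 ratio of the tested genes was -0.72 in Tumor, -0.59 in CD8T and 0.18 in MF, where the medians of all genes tested were -0.03, -0.02 and 0.02. Inside the cycling clusters all 33 passed the level filter. There 0 of 33 were past 1.5-fold in C04 and in C11, where 1.22% and 1.23% of all genes were lower by as much and 0.468% and 1.48% higher. By any amount, 23 of 33 were lower in C04, against 61.4% of all genes, and 27 of 33 in C11, against 50.6%. In C13 Prc1 and Cenpf were past the fold and higher, 2 of 33, against 2.36% of all genes, and 0 were lower, against 1.63%. By any amount 7 of 33 were lower in C13, against 45.8%.

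**Figure D4:**
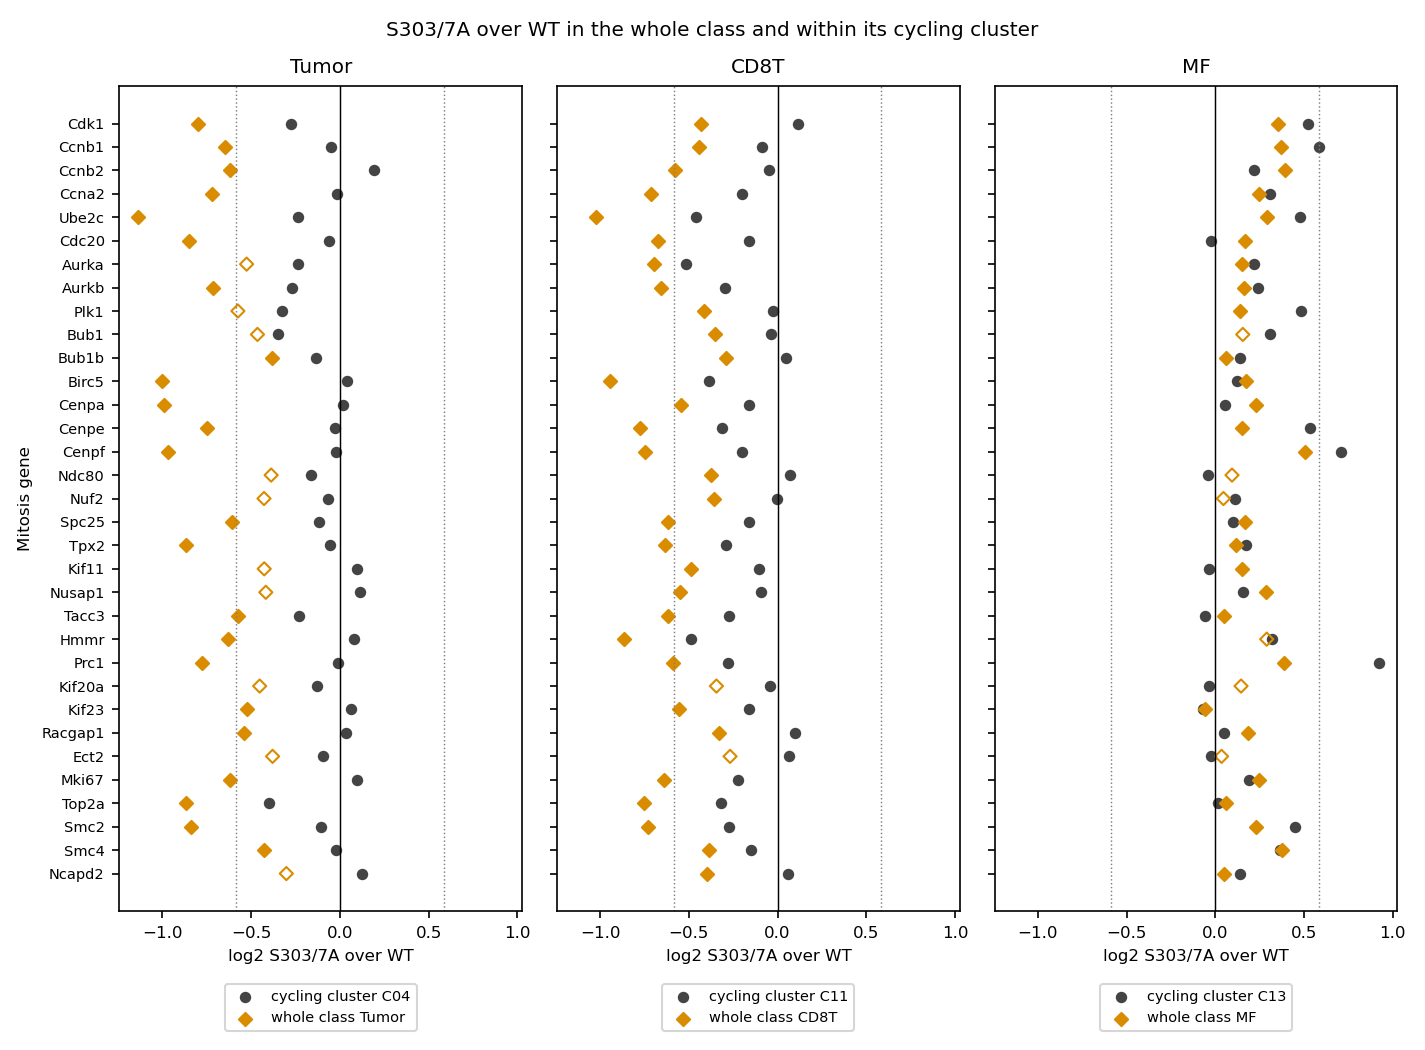
Log2 ratio of S303/7A over WT for each of the 33 mitosis genes, with diamonds for the whole class and circles for its cycling cluster, open symbols for genes under the level filter, and dotted lines at 1.5-fold. In Tumor and CD8T the diamonds lie left of the circles, and in MF most symbols lie to the right of 0.

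Cdk1 and the cyclins were lower in the S303/7A tumor class, and within C04 their differences were smaller and went in both directions. Cdk1, the kinase that starts mitosis, held 0.306 CP10K in S303/7A tumor cells and 0.606 in WT, a log2 ratio of -0.80, and within C04 it held 1.12 and 1.38, or -0.27. Its partner Ccnb1 (cyclin B1) held 0.0880 in S303/7A and 0.195 in WT in the class, and 0.524 and 0.546 within C04. Ccnb2 (cyclin B2) was at 0.217 and 0.387 CP10K in the class, while within C04 it was at 1.15 in S303/7A and 0.998 in WT. Ccna2 (cyclin A2), which acts in S and G2 phase, held 0.109 CP10K in S303/7A tumor cells and 0.244 in WT, a log2 ratio of -0.72, and -0.02 within C04. In CD8T, Ccna2 at 0.506 and 0.894 CP10K was the 1 of 4 past the fold, and Cdk1 in C11 was at 1.87 in S303/7A and 1.72 in WT. In C13, Cdk1 was at 1.40 CP10K in S303/7A and 0.945 in WT and Ccnb1 at 0.74 and 0.461, log2 ratios of 0.52 and 0.58.

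In the APC/C pair, Ube2c had the lowest log2 ratio of the 33 genes in Tumor and in CD8T. Ube2c, the enzyme that passes ubiquitin to APC/C targets, held 0.424 CP10K in S303/7A tumor cells and 1.06 in WT, a log2 ratio of -1.14, and 1.38 and 2.91 CP10K in CD8T, or -1.02. Within the clusters it held 2.43 in S303/7A and 2.89 in WT in C04, 4.36 and 6.02 in C11, and 3.44 and 2.44 in C13. The UMI ratio was thus above 1 in C13, at 1.39 (1.24 to 1.55), and below 1 in C04, at 0.77 (0.72 to 0.81), and C11, at 0.71 (0.66 to 0.76). In C06, Ube2c was at 0.197 CP10K in S303/7A and 0.450 in WT, so its lower level in CD8T was not limited to the cycling cluster. C06 also held some cells with at least 3 mitosis UMIs in 1000, 1.81% in S303/7A and 5.17% in WT. Their ratio was 0.35 (0.16 to 0.79), and their part in the Ube2c difference was not tested. Cdc20, the activator of APC/C, held 0.181 and 0.406 CP10K in Tumor, or -0.85, and 1.09 and 1.14 within C04. Of the 31-base words in the last 500 bases of its transcript, 22.6% also occur in other genes, so its reads could be split in counting.

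Among kinases and checkpoint genes, Birc5 and Aurkb were past the fold in Tumor, and Aurka joined them in CD8T. Birc5 (survivin), which with Aurkb forms the chromosomal passenger complex, held 0.498 CP10K in S303/7A tumor cells and 1.10 in WT, a log2 ratio of -1.0, but 3.11 and 3.03 within C04. In CD8T Birc5 was at 1.29 and 2.58 CP10K, and in C11 at 4.11 in S303/7A and 5.41 in WT, a UMI ratio of 0.78 (0.72 to 0.84). Aurkb, the kinase that corrects wrong attachments, held 0.0551 CP10K in S303/7A tumor cells and 0.154 in WT. The spindle pole kinase Aurka was under the filter in Tumor, at 0.0526 and 0.120 CP10K, and held 0.121 in S303/7A and 0.258 in WT in CD8T, or -0.70; within C11 it was at 0.357 and 0.553. Plk1, a kinase of many mitotic steps, was at 0.0374 and 0.105 CP10K in Tumor, and the checkpoint genes Bub1 and Bub1b were at 0.0247 and 0.0721 and at 0.0805 and 0.136. Of these 3, Plk1 and Bub1 were under the filter, and Bub1b, at -0.38, was tested and was not past the fold.

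Kinetochore genes followed the same order, and Cenpf stood out in C13. Cenpf, a large protein of the outer kinetochore, held 0.275 CP10K in S303/7A tumor cells and 0.633 in WT, a log2 ratio of -0.97, and 1.78 and 1.81 within C04. In C13 it held 1.5 in S303/7A and 0.877 in WT, a log2 ratio of 0.71 and a UMI ratio of 1.71 (1.42 to 2.07). Of its transcript-end words, 25.5% also occur in other genes. Cenpa, the histone H3 variant that marks centromeres, held 0.564 and 1.22 CP10K in Tumor, 2.30 and 3.39 in CD8T, and 1.13 in S303/7A and 1.46 in WT in the non-cycling C06. It was thus among the genes that stayed measurable outside cycling clusters, with a cycling-to-other fold of 4.61 in S303/7A and 4.02 in WT in CD8T. Cenpe, the kinesin that moves chromosomes to the spindle equator, held 0.117 and 0.264 CP10K in Tumor and 0.250 and 0.499 in CD8T, log2 ratios of -0.75 and -0.77. Of the NDC80 complex, which binds microtubule ends, Spc25 was past the fold in Tumor at 0.0869 and 0.185 CP10K, while Ndc80 at 0.0214 and 0.0588 and Nuf2 at 0.0442 and 0.0939 were under the filter.

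Spindle genes differed by class in much the same way. Tpx2, which builds spindle microtubules and activates Aurka, held 0.177 CP10K in S303/7A tumor cells and 0.405 in WT, a log2 ratio of -0.87, and 1.06 and 1.10 within C04. Hmmr, a spindle pole protein, held 0.0812 and 0.180 CP10K in Tumor and 0.187 and 0.424 in CD8T, or -0.87. Within C11 Hmmr held 0.645 in S303/7A and 0.946 in WT, the lowest UMI ratio of the 33 genes there at 0.65 (0.53 to 0.79). Tacc3, a partner of clathrin on spindle fibres, was just inside the fold in Tumor at -0.57 and just past it in CD8T at -0.62. Kif11, the motor that pushes the poles apart, at 0.0482 and 0.0992 CP10K, and Nusap1, which bundles microtubules, at 0.0543 and 0.106, were under the filter in Tumor. Of the transcript-end words, 16.2% for Kif11, 15.1% for Ndc80 and at most 9.79% for each of the other members not named with a share also occur in other genes.

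Prc1, which crosslinks the microtubules of the midzone, was the only midzone gene past the fold in Tumor and CD8T. It held 0.133 CP10K in S303/7A tumor cells and 0.298 in WT, a log2 ratio of -0.78, and 0.285 and 0.479 in CD8T, or -0.59. Within C13 it was at 0.982 in S303/7A and 0.470 in WT, a log2 ratio of 0.92 and a UMI ratio of 1.86 (1.46 to 2.39), the widest of the 33 genes in that cluster. Kif23 and Racgap1, the motor and the GTPase activator of centralspindlin, held 0.0725 and 0.148 and 0.119 and 0.219 CP10K in S303/7A and WT tumor cells, log2 ratios of -0.52 and -0.54. Kif23 was the only 1 of the 33 below 0 in MF, at -0.06, with 0.153 CP10K in S303/7A and 0.164 in WT. Kif20a, a midzone kinesin, was at 0.0347 and 0.0843 CP10K in Tumor, and Ect2, which activates RhoA at the cleavage site, at 0.0266 and 0.0647, each under the filter there and in CD8T. Ect2 also had the smallest mean log2 ratio of cycling to other clusters, 1.37, against 3.49 for Birc5, 3.35 for Cenpf and 3.28 for Ube2c; low levels with 0.1 added hold such ratios down.

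Among chromosome genes, Smc4 had the smallest fold of cycling to other clusters of the 33 genes in each of the 3 classes and each library. By mean log2 ratio of cycling to other clusters, Top2a, Smc2 and Mki67 ranked 7, 8 and 9 of 33. Mki67, which coats mitotic chromosomes, held 0.124 CP10K in S303/7A tumor cells and 0.245 in WT, a log2 ratio of -0.62, and 0.714 and 0.662 within C04; 21.9% of its transcript-end words also occur in other genes. Top2a, which untangles sister DNA, held 0.593 and 1.16 CP10K in Tumor, or -0.87. Within C04 it was at 2.02 in S303/7A and 2.69 in WT, the lowest log2 ratio of the 33 genes there at -0.40. The condensin core gene Smc2 held 0.250 and 0.526 CP10K in Tumor, while its partner Smc4 held 0.712 and 0.991, or -0.43. Smc4 was found in 68.7% of S303/7A and 67.9% of WT tumor cells, and it held 1.26 CP10K in S303/7A and 1.41 in WT in C06, with a cycling-to-other fold of 2.77 and 2.75 in CD8T. Ncapd2, a subunit of condensin I, was at 0.0681 and 0.107 CP10K in Tumor, under the filter.

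**Figure D5:**
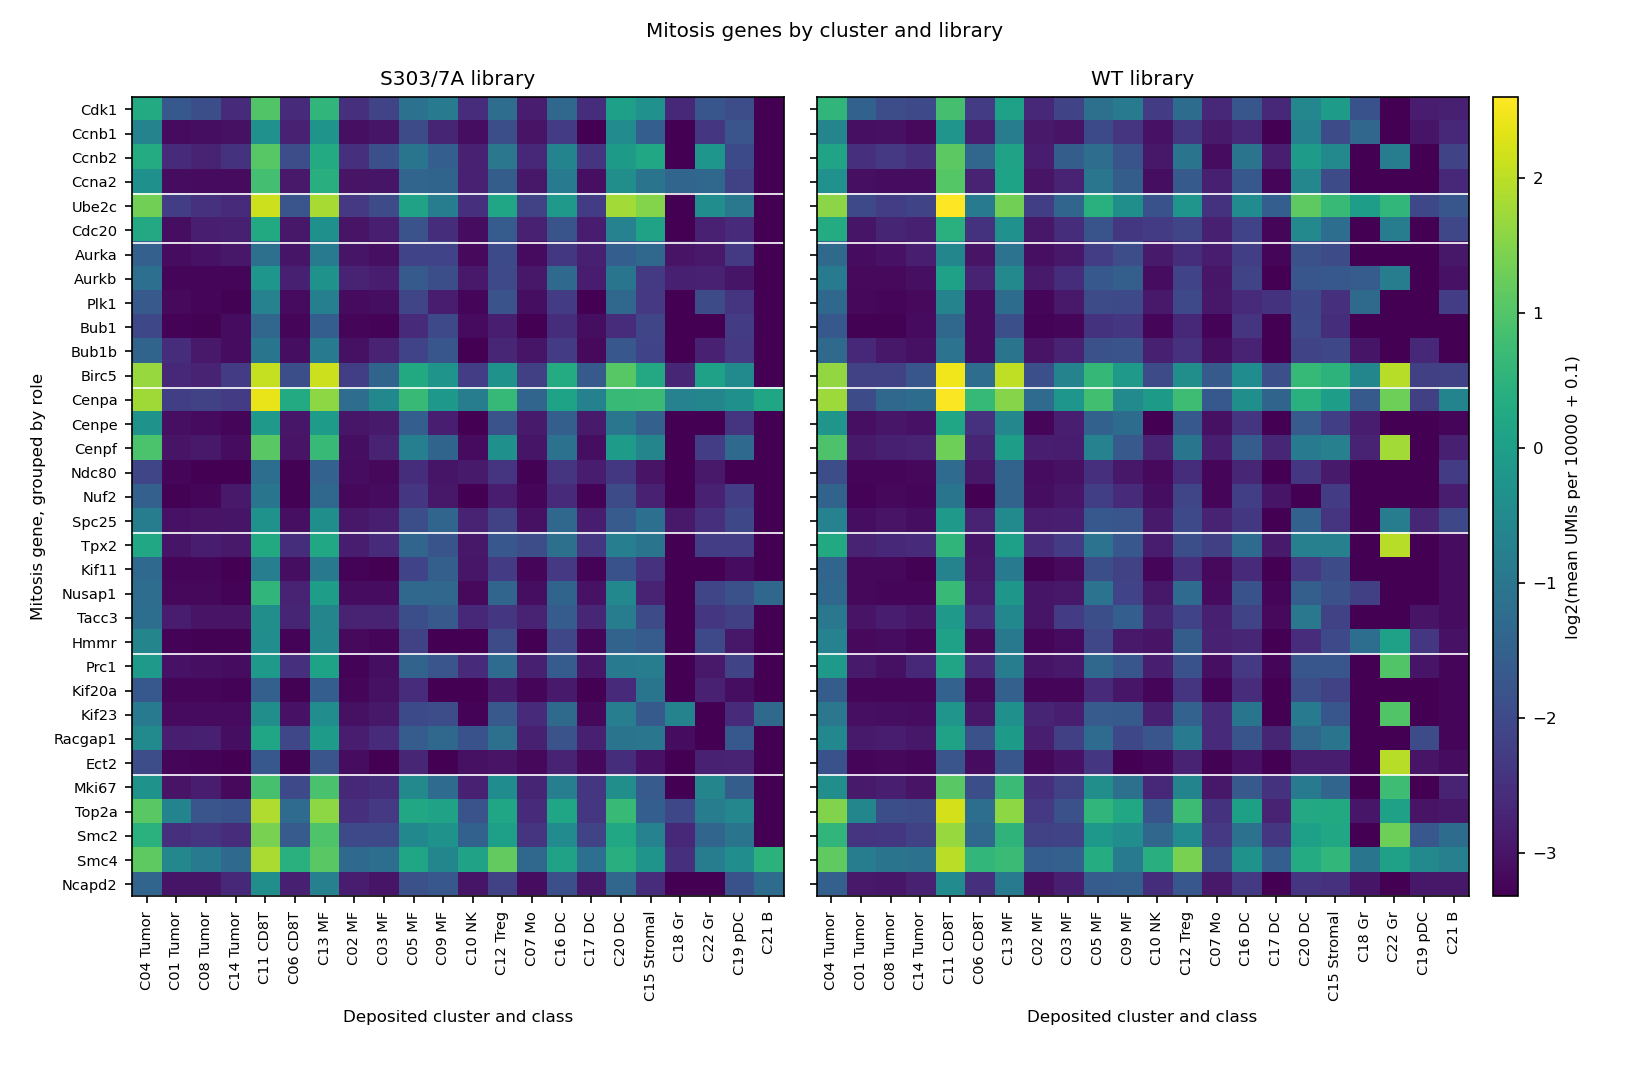
Level of each of the 33 mitosis genes (rows, grouped by role between white lines) in each of the 22 deposited clusters (columns), for the S303/7A library on the left and the WT library on the right, as log2 of mean UMIs per 10000 plus 0.1. C04, C11 and C13 are bright for most genes in each library, Smc4 and Cenpa are also visible outside them, and the C22 column of WT rests on 9 cells.

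In dendritic cells 8 genes were higher in S303/7A past the fold, and no DC cluster is called cycling here. Past the fold were Cenpe at 0.194 CP10K in S303/7A and 0.0672 in WT, Aurkb at 0.224 and 0.0879, Spc25 at 0.196 and 0.0766, Prc1 at 0.187 and 0.0740, Birc5 at 0.943 and 0.551, Mki67 at 0.367 and 0.191, Ccna2 at 0.325 and 0.172, and Nusap1 at 0.230 and 0.119. By mean CP10K, the summed level was higher in S303/7A in each DC cluster. It was 11.5 and 7.78 in C16, the Cd209a cluster, and 2.25 and 1.55 in C17, the Ccr7 cluster. C20, the Xcr1 cluster, held 21.4 over 35 S303/7A cells and 15.9 over 27 WT cells. After thinning to 1000 UMIs, this order held only in C16, with mean mitosis UMIs of 1.25 in S303/7A and 0.813 in WT. In C17 the thinned means were 0.143 in S303/7A and 0.149 in WT. In C20 the thinned mean was also lower in S303/7A, and 25.7% of S303/7A and 33.3% of WT cells had at least 3 UMIs. The DC share with at least 3 UMIs in 1000 was 13.1% in S303/7A and 9.5% in WT, a ratio of 1.38 (0.82 to 2.33). Macrophage markers in DC summed to 26.5 CP10K in S303/7A and 10.8 in WT, and median depths were 13046 and 7322.5 UMIs; their part in the DC difference was not tested.

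Other mitosis genes outside the 33, from a list of 73, differed in the same direction as the 33 in these classes. In Tumor 15 of 35 tested were 1.5-fold lower in S303/7A, against 1.64% of all genes, and 0 higher, against 0.653%. In CD8T 12 of 54 were lower, against 2.01%, and 0 higher, against 1.60%. In MF 0 of 30 passed in either direction, where 2.73% of all genes were lower and 1.59% higher, and 27 of 30 were above 0. The highest in MF were Cdca3 at 0.398 CP10K in S303/7A and 0.259 in WT and Cdca8, a passenger complex subunit, at 0.405 and 0.288. The lowest in Tumor were Stmn1, a microtubule destabiliser, at 0.886 CP10K in S303/7A and 1.76 in WT, H2afx at 0.584 and 1.17, and Cks1b, a subunit that binds CDKs, at 1.27 and 2.41. The highest were Kif2a at 0.497 and 0.536, Psrc1 at 0.339 and 0.352, and Pttg1 (securin) at 0.403 in S303/7A and 0.403 in WT. In CD8T Pttg1 was among the 3 lowest at 1.01 in S303/7A and 1.89 in WT, with Cit at 0.151 and 0.364 and Ska2 at 0.168 and 0.366, and the highest was Zwint at 0.403 in S303/7A and 0.379 in WT.

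DNA replication genes, 52 in the table, differed less. In Tumor 8 of 31 tested were 1.5-fold lower in S303/7A, against 1.64% of all genes, with a median log2 ratio of -0.40. In CD8T it was 6 of 44, against 2.01%, with a median of -0.35. In MF 1 of 34 was higher, near the 1.59% of all genes, Tk1 at 0.541 CP10K in S303/7A and 0.327 in WT. Uhrf1 was lowest in Tumor at 0.0767 CP10K in S303/7A and 0.201 in WT, followed by Tk1 at 0.138 and 0.300 and Gmnn at 0.157 and 0.327. Clspn was lowest in CD8T, at 0.230 and 0.465 CP10K. Within C13, 0 of 49 were past the fold, where 1.63% of all genes were lower and 2.36% higher by as much. The summed level of the replication genes there was 27.6 CP10K in S303/7A and 27.0 in WT, where the 33 mitosis genes were at 37.3 and 31.1.

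Regulators of the program were at low counts. Foxm1 was at 0.0463 CP10K in S303/7A tumor cells and 0.0854 in WT, under the filter, and at 0.211 and 0.213 within C04, 0.212 and 0.195 within C11 and 0.327 and 0.259 within C13. Mybl2 was at 0.120 in S303/7A and 0.156 in WT within C04, 0.266 and 0.193 within C11, and 0.189 and 0.260 within C13. Of the 22 regulators of DREAM and FOXM1, 1 of 11 tested in Tumor was past the fold, E2f8 at 0.147 CP10K in S303/7A and 0.366 in WT, and in CD8T 1 of 14, E2f2 at 0.0971 and 0.209, where 1.64% and 2.01% of all genes were lower by as much. In MF 0 of 13 were past the fold, where 2.73% of all genes were lower and 1.59% higher by as much. Tfdp1 was the highest regulator there, at 0.331 in S303/7A and 0.229 in WT.

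Upstream of mitosis, Ccnd1 (cyclin D1), which drives entry into the cycle with Cdk4 and Cdk6, was the 1 of 7 G1 genes past the fold in Tumor, against 1.64% of all genes, at 3.54 CP10K in S303/7A and 6.51 in WT, a log2 ratio of -0.86. Within C04 it was at 7.26 and 9.63, or -0.40. In MF Ccnd1 was at 1.35 in S303/7A and 1.78 in WT, or -0.38, where the mitosis genes were higher. Cdkn1a (p21), which inhibits CDKs, was at 5.23 CP10K in S303/7A and 5.69 in WT in Tumor, 0.341 and 0.270 in CD8T and 2.39 and 2.90 in MF. Of 12 CDK inhibitor and antiproliferative genes, 0 of 9 in Tumor, 0 of 10 in CD8T and 0 of 9 in MF were past the fold. Of all genes tested, 1.64% were lower and 0.653% higher in Tumor, 2.01% and 1.60% in CD8T, and 2.73% and 1.59% in MF. At such shares a count of 0 says little about these 12 genes. The highest of them in Tumor were Cdkn2c (p18), at 1.82 in S303/7A and 1.34 in WT, and the antiproliferative gene Btg1, at 3.65 and 2.84. In MF Btg1 was the lowest, at 4.37 in S303/7A and 6.45 in WT, or -0.55. Hsf1 itself was at 0.193 CP10K in S303/7A tumor cells and 0.254 in WT, 0.120 and 0.135 in CD8T, and 0.0973 and 0.144 in MF; its codon changes cannot be seen in 3′ counts, so this does not check the genotype.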

How the data were processed

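Per the labels' protocols, tumors were digested, live CD45+ and CD45- cells were sorted and mixed, and 3′ droplet libraries (10x Genomics) were made. Per the submitters' processing notes, Cell Ranger and Seurat 3.0 were used with mm10 (GRCm38); cell filters and clustering settings are not given in the sources. Expression was deposited as the natural log of 1 plus UMIs, scaled by the authors to 100000 per cell. Cell totals and gene numbers were deposited as whole counts, and mitochondrial shares as a percent of UMIs, at most 9.98%. Each deposited cell carries a library, 1 of 22 clusters and 1 of 11 classes.

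Undoing the log gave whole UMIs: 99.9% of the values above 0 came out whole to within 0.1 UMI, and the sum per cell was never more than 3 UMIs from the deposited total over 11456 cells. The shallowest cell has 538 UMIs. Levels are means over cells of UMIs per 10000 (CP10K). Log2 ratios have S303/7A on top and 0.1 CP10K added as a pseudocount, which understates differences of low genes. Genes tested have a mean of at least 0.1 CP10K over the libraries, and called means 1.5-fold or more. Shares carry exact (Clopper-Pearson) 95% binomial intervals, UMI ratios exact conditional intervals, and ratios of shares log-normal intervals; all cover counting error only. With 1 library per genotype no p-value was made. Cells were thinned to 1000 UMIs with a fixed seed. Scrublet in scanpy 1.11.5 marked 0.0833% of S303/7A and 0.827% of WT cells by its automatic threshold, and has not worked for S303/7A; the 215 and 361 highest scores were left out as an alternative, and no cell was left out otherwise. Sequences and motif shares come from RefSeq promoters on GRCm38.p6, and transcript-end words from GENCODE M21 on GRCm38. Ratio and interval steps were tested on simulated counts in which all cells of a class shared 1 profile. Spread between cells was not simulated, so that test does not show how the intervals hold where cells differ. Thinning was checked only for the UMI total of each thinned cell. Other tools were pandas 2.3.3, matplotlib 3.10.9, scipy 1.17.1, Python 3.11.15 and numpy 2.4.6.

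The members, the other gene lists and the tests were chosen with earlier results of these data known. Named genes are the 33 members, the 3 highest and 3 lowest log2 ratios of each other list in Tumor, CD8T and MF, the regulators Foxm1, Mybl2, Cdkn1a and Ccnd1, Hsf1 and markers; genes called in classes of few calls are named by their call.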

Additional observations from a re-analysis of the deposited data

Results flagged for a closer look

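The summed level of the 33 mitosis genes had a log2 ratio of S303/7A over WT of 0.293 in macrophages and 0.624 in dendritic cells, opposite in sign to -1.04 in Tumor and -0.74 in CD8T. The difference between classes was not tested, since each genotype has 1 library. Within the cycling clusters the ratio was 0.263 in C13, opposite in sign to -0.08 in C04 and -0.23 in C11, and this difference was not tested either.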

How the results depend on the processing

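Of 180 alternatives to the main results, 137 stayed within the tolerance, 43 moved and 0 reversed. Of 418 for the remaining classes and clusters and their counts of members, 294 stayed and 124 moved, with 0 reversed. A reversal was recorded only where the main ratio was 1.5-fold or more, and never for counts of members. Smaller ratios could change sign without being recorded so. Treg had a log2 ratio of -0.02 by means and a UMI ratio of 1.10. Mean thinned mitosis UMIs were 1.15 in S303/7A and 1.29 in WT in Stromal, where the main log2 ratio was 0.16. In C17 they were 0.143 and 0.149, where it was 0.53, and in Mo 0.135 and 0.180, where it was 0.05. The largest shifts came from weighting clusters equally, where the log2 ratio of the summed level was -0.12 in place of -1.04 in Tumor, -0.25 in place of -0.74 in CD8T and 0.067 in place of 0.29 in MF. As the median of the members it was -0.62, -0.58 and 0.17, and as summed UMIs -1.07, -0.67 and 0.18. Cells thinned to 1000 UMIs gave -0.98 in Tumor and -0.80 in CD8T, totals without mitochondrial and ribosomal protein genes -1.01 and -0.69, and leaving out the 3 members with the most UMIs -0.99 and -0.70. Without the highest doublet scores it was -1.01 in Tumor and 0.39 in MF. MF was at 0.45 without C05 and 0.46 without cells of non-T classes with 3 or more T cell marker UMIs. In C04 (-0.08) it was -0.13 as summed UMIs, -0.042 without the highest doublet scores and -0.053 without mitochondrial and ribosomal genes; thinning gave -0.28 in C11 (-0.23) and 0.39 in C13 (0.26).

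Members 1.5-fold lower in Tumor numbered 18, and 11 after thinning (of 20 tested, where 3.76% of all genes were lower), 0 with a pseudocount of 1 CP10K (0.125% of all genes) and 2 at 2-fold (0.167%). In CD8T they numbered 16, and 2 with a pseudocount of 1 CP10K (0.270% of all genes) and 1 at 2-fold (0.359%). In MF 1 member was higher after thinning (2.96% of all genes), 1 without the highest doublet scores (1.74%) and 1 without C05 (1.94%), against 0. After thinning, 6 members were lower and 2 higher in C04, 6 lower and 1 higher in C11, and 1 lower and 10 higher in C13; thinned counts there also put 13.9% to 19.7% of all genes past the fold in each direction. The 2 higher in C13 were 0 with a pseudocount of 1 CP10K (0.126% of all genes) and 0 at 2-fold (0.225%).

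The C13 share had a log2 ratio of 0.72, and 0.26 when cells were counted by at least 3 UMIs. The share of cells by UMIs had log2 -0.12 in C11 and -0.37 at 5 UMIs, and 0.33 in C13 and 0.019 at 3000 UMIs, where a limit of 3 UMIs is looser. Where no value above shows it, the cause was not tested. Leaving out shared barcodes, C05 or cells of non-T classes with T cell UMIs was chosen after seeing the data. No paired analysis was possible because each genotype has 1 library. Depth limits the rarest genes, which thinning leaves at few UMIs.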
